A study of Mus musculus with 10 samples.

Results

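Of the 47238 H3K27Ac peaks that fresh frozen mouse liver gave on chromosomes 1 to 19, 7685 met no peak in any of 5 long H3K27Ac peak lists from formalin-fixed, paraffin-embedded (FFPE) liver. They are called absent peaks here, and the other 39553 found peaks. The 5 lists were made with FiTAc-seq, and an overlap of 1 bp in any 1 of them was enough to count a peak as found. Absent peaks with a −log10 q-value of 20 or more in the fresh frozen list are called strong (174), and the rest weak (7511). Those with a FiTAc-seq peak within 5000 bp of an edge are called flanking (2760), and those without one isolated (4925). The peaks were thus selected on their absence and divided by their value and distance, which are given below as description, with no test.

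H3K27Ac is acetylation of a lysine in the tail of histone H3. It is laid down by the coactivators p300 and CBP, removed by histone deacetylases, and marks promoters and enhancers that are in use. H3K4me2, a dimethylated lysine of the same tail, marks promoters and enhancers more widely, including ones that are primed but not active. In liver, H3K27Ac lies densely around genes of hepatocyte metabolism and secretion. In FFPE tissue, long fixation crosslinks protein to DNA, and heat with detergent is used to free chromatin for immunoprecipitation.

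All groups were normal mouse liver, taken as full sections. The FiTAc-seq groups were FFPE tissue heated overnight in 1% SDS buffer and immunoprecipitated for H3K27Ac. They were 50 °C with 5 min of sonication, 50 °C with 40 min, 65 °C with 5 min in 2 libraries, 65 °C with 40 min, and 80 °C with 40 min. Another FFPE pair was homogenized with proteinase K (FiT-seq), 1 library for H3K27Ac and 1 for H3K4me2. The fresh frozen group was 1 H3K27Ac library, described as matched, from sections fixed for 10 min in 1% formaldehyde before standard ChIP-seq. All libraries were made with 1 of 2 kits, not given for each. Labels give neither the age nor the sex of the animals, nor whether any of these libraries shared an animal or a block. FFPE input DNA was listed too, but no peaks of it were analysed here.

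Read depth is unknown, since the files hold peaks and no counts. The long FiTAc-seq lists held 38099 to 64465 autosomal peaks, FiT-seq H3K4me2 11616, FiT-seq H3K27Ac 112 and the 80 °C list 55. Apart from 65 °C with 5 min, each group was 1 library. Shares are given with Wilson 95% intervals in brackets; these hold for counting error alone, because neighbouring peaks are not independent and no value replaces a second animal. On chromosome Y the 5 long FiTAc-seq lists held 0 peaks each and fresh frozen liver 73, although the FiTAc-seq lists held between 310 and 958 peaks on chromosome X. The other FFPE lists were mixed there, with 9 peaks in the 80 °C list, 1 for FiT-seq H3K4me2 and 0 for FiT-seq H3K27Ac. Fresh frozen liver and the 5 long FiTAc-seq lists therefore differed on chromosome Y. Fixation cannot be told apart from a difference between animals in any autosomal result. Gene annotation and sequence of mm9, the build of the files, were not used here, so sites carry positions and no gene names, and the liver source was not checked against marker genes.

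Absence went with a low value in fresh frozen liver. Between −log10 q-values of 2 and 5, 2829 of 7333 peaks were absent, or 38.6% (37.5 to 39.7). The share was 22.5% (21.9 to 23.1) between 5 and 10, and 7.66% (7.20 to 8.16) between 10 and 20. Above these it was 2.22% (1.84 to 2.67) between 20 and 30, 1.07% (0.808 to 1.42) between 30 and 50, and 0.857% (0.536 to 1.37) at 50 or more. Of all fresh frozen peaks 16.3% were absent, of the weak ones 20.9% and of the strong ones 1.54%. The median −log10 q-value was 5.74 for absent peaks and 11.4 for found peaks.

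**Figure D1:**
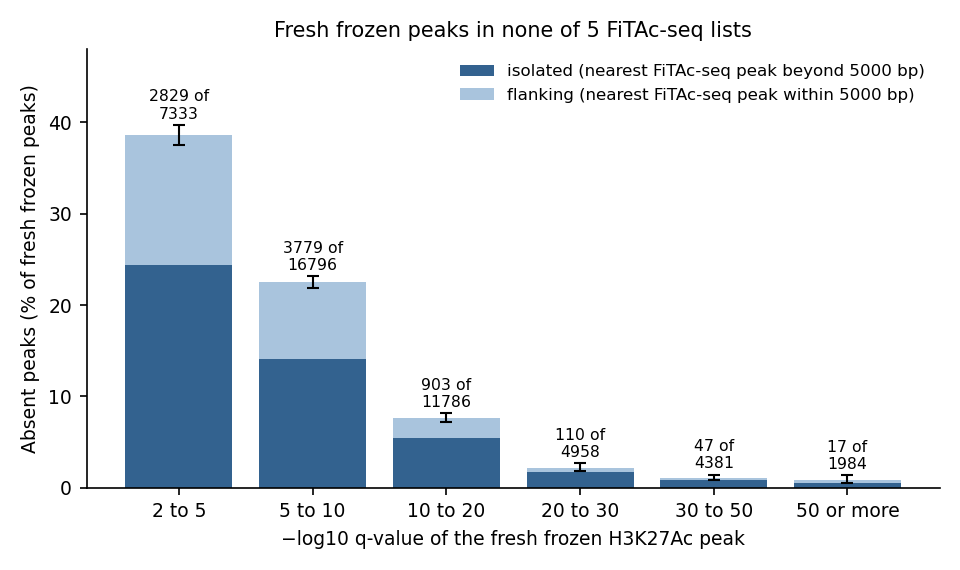
Share of fresh frozen H3K27Ac peaks on chromosomes 1 to 19 that were absent from all 5 long FiTAc-seq lists (y, percent), in bins of their −log10 q-value (x). Dark bars are isolated and light bars flanking peaks, error bars are Wilson 95% intervals of the whole bar, and the share declines with each bin from 38.6% to 0.857%.

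Single FiTAc-seq lists, each of which by the rule misses every absent peak, differed in how many strong peaks they missed in all. The libraries at 65 °C and 5 min missed 352 and 439 of the 11323 strong peaks, a mean of 395.5 ± 61.5 (SD, n = 2). After 40 min, 309 were missed at 65 °C and 315 at 50 °C, both below the lower library of the pair. At 50 °C and 5 min 2115 were missed, or 18.7%. That list added little to the common set, since leaving it out gave 7747 absent peaks and again 174 strong ones. It was also the shortest, with 38099 autosomal peaks. The 65 °C/5 min libraries held 59431 and 55848, 65 °C/40 min 63188 and 50 °C/40 min 64465. Longer lists missed fewer strong peaks, apart from the 40 min lists, whose order was reversed. Condition therefore cannot be told apart from list length here.

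Absent peaks were also narrower than found peaks, and more so among strong ones. Strong absent peaks had a median width of 437.5 bp (quartiles 300.75 and 582.5) and strong found peaks 649 bp (489 and 869). Weak absent peaks had a median of 217 bp and weak found peaks 310 bp. The difference in width was present within every bin of value above, with medians of 442 bp in absent and 564 bp in found peaks between 20 and 30, 427 and 693 bp between 30 and 50, and 391 and 774 bp at 50 or more. A narrow peak also has less room to meet another, and how far width sets the absence was not tested. Among peaks of 20 to 30, 9.54% (6.55 to 13.7) were absent at widths up to 300 bp and 1.21% (0.881 to 1.67) above 500 bp.

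Most absent peaks lay more than 5000 bp from any peak of the 5 long FiTAc-seq lists, and most flanking ones lay within 500 bp of one. Distances are to called peaks, and signal below the call limit was not seen. Of the strong peaks, 134 were isolated and 40 flanking, and of the weak ones 4791 were isolated and 2720 flanking. Isolated strong peaks lay a median of 27043 bp from the nearest FiTAc-seq peak, and 34 of the 134 lay beyond 100000 bp. Flanking peaks lay a median of 351.5 bp away, and 1718 of the 2760, or 62.2%, were within 500 bp. The farthest strong peak, chr6:77026104-77026554 (−log10 q-value 23.2), lay 3821096 bp from the nearest FiTAc-seq peak, next to a weak absent peak at chr6:77025136-77025621 of 9.03. Its gaps to each list ran from 3821096 bp (50 °C/40 min) to 3822893 bp (50 °C/5 min).

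**Figure D2:**
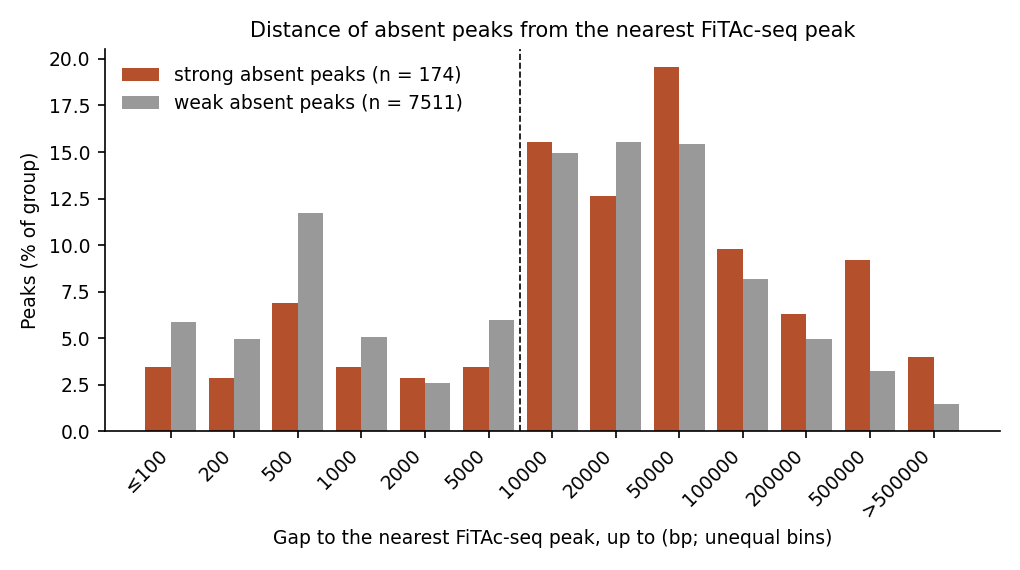
Share of strong (n = 174) and weak (n = 7511) absent peaks (y, percent of the group) by the gap to the nearest peak of the 5 long FiTAc-seq lists (x, upper end of each bin in bp, unequal bins). The dashed line is the 5000 bp limit between flanking and isolated peaks, and in both groups the bins from 5000 to 50000 bp hold the most isolated peaks.

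Peaks at either limit had like values. The 2 strong peaks nearest the limit of 20 had −log10 q-values of 20.1 (chr1:56596617-56597059) and 20.2 (chr1:94728328-94728768). The 2 weak peaks nearest it had 19.9 each (chr19:37317521-37317983 and chr3:36393934-36394514). Of the strong peaks, chr9:3018270-3018489 and chr1:129652635-129653069 were just inside the distance limit, at 4951 and 4607 bp. Just outside it were chr8:93411012-93411210 at 5001 bp and chr10:21862116-21862873 at 5337 bp.

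H3K4me2 from FFPE liver was not used to choose the peaks, although labels do not say whether its library shared an animal or a block with the others. Strong absent peaks met an H3K4me2 peak in 56 of 174 cases, or 32.2% (25.7 to 39.4), and strong found peaks in 4359 of 11149, or 39.1% (38.2 to 40.0). Over all strong peaks the share was 39%. Weak absent peaks met one in 330 of 7511 cases, or 4.39% (3.95 to 4.88), and weak found peaks in 2935 of 28404, or 10.3% (9.98 to 10.7), with 9.09% over all weak peaks. The share was 32.8% (25.5 to 41.2) for isolated and 30.0% (18.1 to 45.4) for flanking strong peaks, with overlapping intervals.

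H3K4me2 was less frequent at absent than at found peaks up to a value of 30, and more frequent at 50 or more. Between −log10 q-values of 10 and 20, H3K4me2 peaks lay at 7.97% (6.38 to 9.92) of absent and 16.7% of found peaks, and between 20 and 30 at 18.2% (12.1 to 26.4) and 32.4%. Between 30 and 50 the shares were 46.8% (33.3 to 60.8) in absent and 43.6% in found peaks, a difference within counting error. At 50 or more, 14 of the 17 absent peaks had one, or 82.4% (59.0 to 93.8), and 898 of 1967 found peaks, or 45.7%. All 14 of these absent peaks, and 17 of the 22 between 30 and 50, lay on one of the 100 highest peaks of the H3K4me2 list. Leaving out peaks on those 100 removes only peaks with H3K4me2. At 50 or more this fixes the absent count at 0 of 3, with an interval of 0 to 56.1%. The found share there was 883 of 1952, or 45.2%, so this bin cannot show a difference in H3K4me2 once those peaks are left out. Between 30 and 50 it then lay at 5 of 30 absent peaks, or 16.7% (7.34 to 33.6), and at 1884 of 4330 found peaks, or 43.5%. Width moved with this. Between 20 and 30, narrow peaks of up to 300 bp had H3K4me2 in 44.0% (26.7 to 62.9) of absent cases, 6 of the 11 on those 100, and 10.1% (6.90 to 14.6) of found cases, but peaks above 500 bp in 2 of 37 absent cases, or 5.41%, and 36.9% (35.2 to 38.6) of found cases.

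**Figure D3:**
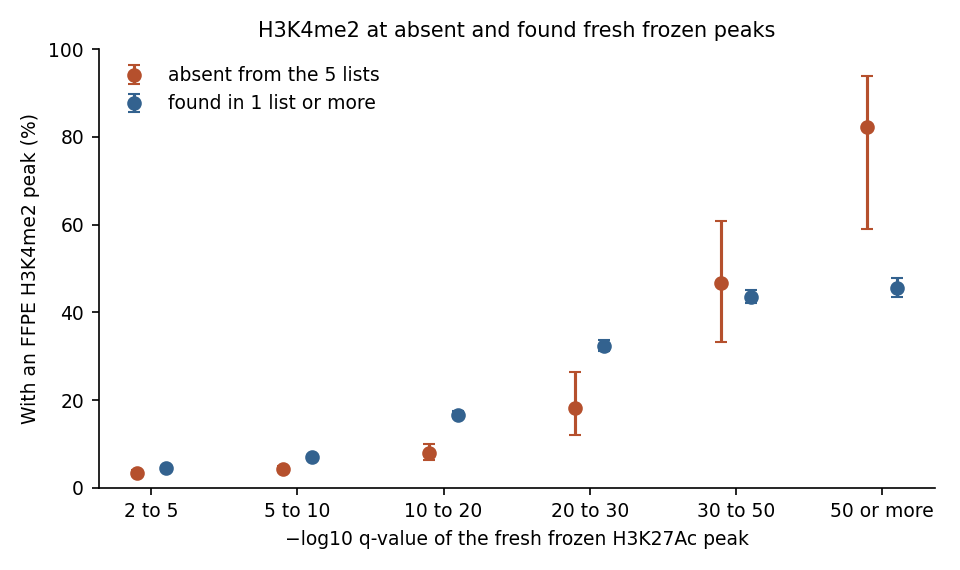
Share of absent and found fresh frozen peaks with an FFPE H3K4me2 peak (y, percent, with Wilson 95% intervals) in bins of the fresh frozen −log10 q-value (x). Absent peaks lie below found peaks up to 30 and above them at 50 or more, where 17 absent peaks remain and all 14 absent peaks with H3K4me2 lie on one of its 100 highest peaks.

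The H3K4me2 peaks at the strongest absent sites were themselves among the highest of their list. Strong absent peaks met one of the 100 highest H3K4me2 peaks in 39 of 174 cases, or 22.4% (16.9 to 29.2). Strong found peaks did so in 21 of 11149 cases, or 0.188% (0.123 to 0.288), and all strong peaks in 0.53%. Among peaks with an H3K4me2 peak, its median rank was 58 at strong absent and 5412 at strong found peaks, in a list of 11746. The limit of 100 was set after the ranks were seen. One of the 100 highest lay at 9 of 7511 weak absent and 2 of 28404 weak found peaks, against 0.0306% of all weak and 0.15% of all fresh frozen peaks. With the 50 highest the counts were 25 of 174 and 12 of 11149, and with the 1000 highest 48 and 318.

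The share on the 100 highest went down with the number of FiTAc-seq lists that held the site. For strong peaks it was 22.4% in 0 lists, 9.09% (4.23 to 18.4) in 1, 3.13% (1.22 to 7.76) in 2, 1.42% (0.485 to 4.10) in 3, 0.440% (0.213 to 0.906) in 4 and 0.0109% (0.00193 to 0.0619) in 5. The share with any H3K4me2 peak did not follow that order, with 32.2%, 31.8%, 19.5%, 25.1%, 30.9% and 41.2% over the same 6 classes.

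**Figure D4:**
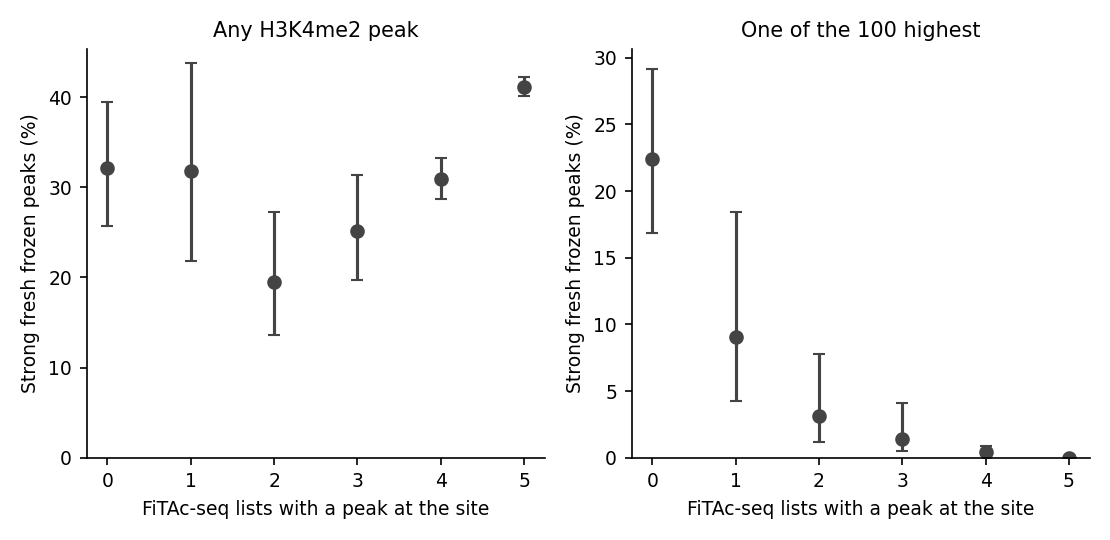
Strong fresh frozen peaks (−log10 q-value of 20 or more) with any FFPE H3K4me2 peak (left) and with one of its 100 highest peaks (right), as percent with Wilson 95% intervals (y, scales differ), by how many of the 5 long FiTAc-seq lists hold a peak at the site (x). Absent peaks are at 0, where the right panel stands at 22.4%, and peaks in all 5 lists are at 0.0109%.

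With those 100 H3K4me2 peaks set aside, a choice made after seeing the data, strong absent peaks had an H3K4me2 peak in 17 of 135 cases, or 12.6% (8.01 to 19.2). Strong found peaks then had one in 4338 of 11128 cases, or 39.0% (38.1 to 39.9). Every peak set aside had H3K4me2, and they were 39 of the 56 absent and 21 of the 4359 found peaks with it. The fall in the absent share is thus in part built in. The 174 strong absent peaks thus divided into 39 on a very high H3K4me2 peak, 17 on a lower one and 118 on none.

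**Figure D5:**
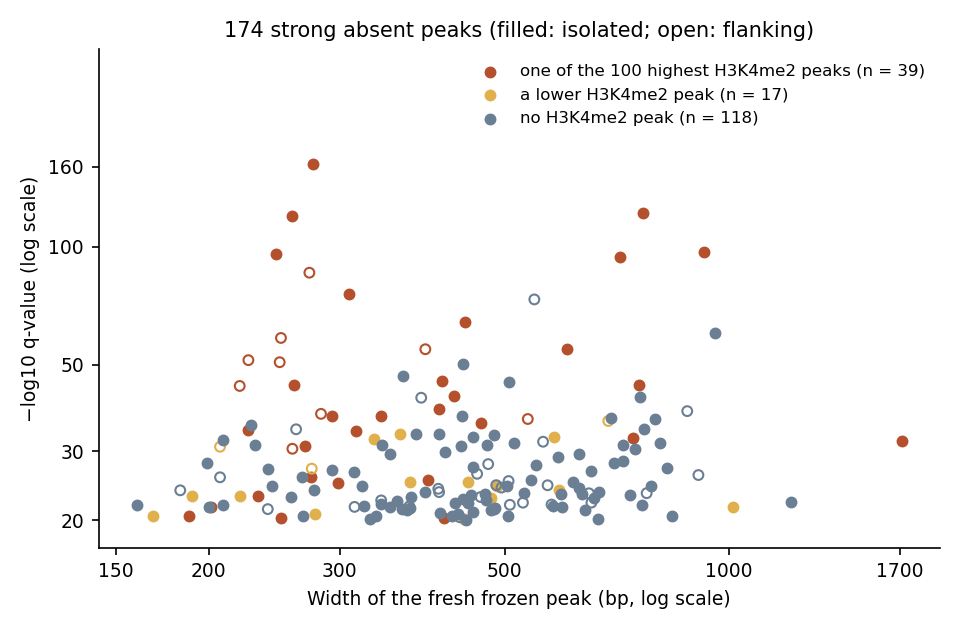
The 174 strong absent peaks by width (x, bp, log scale) and −log10 q-value in fresh frozen liver (y, log scale), coloured by the H3K4me2 peak at the site, with isolated peaks filled and flanking peaks open. Sites on one of the 100 highest H3K4me2 peaks (n = 39) hold most of the highest values, and most sites with none (n = 118) lie below 50.

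The 39 sites on a very high H3K4me2 peak were high and narrow, with a median −log10 q-value of 38.4 and a median width of 298 bp. The 21 strong found peaks on such a peak were also high and narrow, with medians of 83.2 and 355 bp. Both edges lay within 100 bp of those of the H3K4me2 peak in 34 of the 39 absent and 18 of the 21 found cases. The median of the larger edge difference was 21 bp in absent and 8 bp in found cases, so close edges were common to both. Over all strong peaks with an H3K4me2 peak, the edges were this close in 41 of 56 absent cases, or 73.2% (60.4 to 83.0), and in 201 of 4359 found cases, or 4.61% (4.03 to 5.27). Width moved with this, so the same shares were taken within a class of width. Between 300 and 500 bp they were 55.6% (33.7 to 75.4) in strong absent and 15.6% (13.1 to 18.5) in strong found peaks. Above 500 bp they were 58.3% and 1.98%. Up to 300 bp they were 92.3% (75.9 to 97.9) and 64.5% (46.9 to 78.9), where the intervals overlap. Such classes do not hold the H3K4me2 rank. Between 300 and 500 bp, 11 of 18 absent but 9 of 698 found peaks with H3K4me2 lay on one of the 100 highest. On lower H3K4me2 peaks, edges were close in 7 of 17 absent and 183 of 4338 found cases. Of these 39 sites, 30 were isolated. FiT-seq H3K27Ac also lay at 14 of the 39 absent sites and 12 of the 21 found ones. Whether these sites stand out in input DNA was not analysed here.

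The strongest isolated site of all was chr12:3109899-3110174, 276 bp wide, with a −log10 q-value of 162 and rank 5 in fresh frozen liver. The nearest peak was 125179 bp off in the 50 °C/5 min list, 125291 bp off after 50 °C/40 min, 125165 and 125111 bp off in the pair of 65 °C/5 min libraries, and 125250 bp off after 65 °C/40 min. H3K4me2 ranked 7 there with 169, its edges within 7 bp, and FiT-seq H3K27Ac ranked 103 with 9.21. All 5 lists thus had their nearest peak at about the same place.

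On the same chromosome, chr12:68160143-68160909 (767 bp, −log10 q-value 122, rank 15) stood in a long stretch without FFPE H3K27Ac, with gaps between 1885702 and 1983739 bp. The nearest other fresh frozen peak was 1800390 bp away, and the H3K4me2 peak ranked 12, its edges within 8 bp. Also there, chr12:75904864-75905578 (715 bp, 94.2, rank 108), had gaps between 503255 and 504481 bp and an H3K4me2 peak of rank 20. No FiT-seq H3K27Ac peak lay on either.

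Of the remaining isolated sites among the 10 highest, chr9:24346412-24346670 (259 bp, −log10 q-value 120, rank 17) had gaps of 27696 to 28902 bp and an H3K4me2 rank of 19. The 926 bp site at chr15:74916577-74917502 (96.8, rank 86) had gaps that differed between lists, from 24664 bp (65 °C/40 min) to 78343 bp (50 °C/40 min), and an H3K4me2 rank of 18. Both also held a FiT-seq H3K27Ac peak, of ranks 107 and 82. At chr13:77578087-77578395 (309 bp, 75.6) the H3K4me2 rank was 26, at chr18:40467646-40468087 (442 bp, 64.1) it was 10, and at chr13:3372228-3372834 (607 bp, 54.9) it was 30. Those 3 had no FiT-seq H3K27Ac peak, and their nearest FiTAc-seq peaks were 269200, 88188 and 152063 bp away. Between them and chr9:3015197-3015442, described with its block below, 9 of the 10 highest isolated sites lay on one of the 30 highest H3K4me2 peaks.

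The exception among the 10 was chr3:126708352-126709310, 959 bp wide with a −log10 q-value of 60.0 and rank 1014. It had no H3K4me2, FiT-seq H3K27Ac or 80 °C peak. All lists lacked it by a like distance: 117369 bp for 50 °C/5 min, 116880 bp for 50 °C/40 min, 116821 and 116806 bp for the 65 °C/5 min pair, and 116902 bp for 65 °C/40 min. Another fresh frozen peak lay 260 bp from it.

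It also led the 90 isolated ones among the 118 strong absent peaks without H3K4me2. The 118 were lower and wider than those on the highest H3K4me2 peaks, with a median −log10 q-value of 24.0 and a median width of 461.5 bp. The next isolated ones were chr17:36621555-36621993 (−log10 q-value 50.3, nearest gap 212281 bp), chr7:52532592-52532956 (46.6, 11808 bp), chr7:113423801-113424307 (45.2, 15683 bp) and chr11:3073980-3074740 (41.3, 12051 bp). At the second chromosome 7 site the lists differed, with gaps of 15683 and 15739 bp for the 65 °C/5 min pair but 247727 bp for 65 °C/40 min. Of the 118, 86 had another fresh frozen peak within 5000 bp, against 19 of the 39 on the highest H3K4me2 peaks. That share was not taken for found peaks, but their neighbours were close too. No other fresh frozen peak lay within 10000 bp of 18.6% of the 118 and 11.9% of strong found peaks without H3K4me2. On the 100 highest H3K4me2 peaks these shares were 38.5% in absent and 52.4% in found peaks. The 118 fell into 115 loci when joined across gaps of up to 5000 bp, so most loci held 1 of them.

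The widest strong absent peaks were not the highest. At 1709 bp, chr4:3016661-3018369 had a −log10 q-value of 31.9, a nearest gap of 227642 bp and an H3K4me2 rank of 87. At 1212 bp, chr17:16997232-16998443 had 22.3, a gap of 89700 bp and no H3K4me2 peak. At 1015 bp, chr4:9697326-9698340 had 21.7, a gap of 100238 bp and an H3K4me2 rank of 441.

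Flanking strong peaks lay a median of 336.5 bp from a FiTAc-seq peak, and 33 of the 40 had a found fresh frozen peak within 5000 bp. In 30 of the 40 cases, or 75% (59.8 to 85.8), the nearest FiTAc-seq peak itself lay on a found fresh frozen peak. For all 2760 flanking peaks that share was 47.4% (45.5 to 49.3). The neighbouring FiTAc-seq peaks, pooled over the 5 lists, had a median −log10 q-value of 5.42 and a median width of 203 bp. Medians of the single lists ran from 5.65 to 8.90 and from 286 to 354 bp. The pooled value is a rough guide, since values of different lists are not on 1 scale. Of the flanking peaks, 61.2% and 50.1% had a peak of the first and second 65 °C/5 min library within 5000 bp. After 40 min of sonication the share was 55.7% for 50 °C and 55.1% for 65 °C, and it was 15.9% for 50 °C/5 min. A peak in only 1 of the 5 lists made 995 of them flanking, and 237 had one in all 5.

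Of the 5 highest flanking peaks, 4 lay at the start of chromosome 9. The other was chr19:5406816-5407363, 548 bp wide with a −log10 q-value of 73.4 and rank 411. It had no H3K4me2 peak, and another fresh frozen peak lay 178 bp from it. The 65 °C/5 min pair had peaks 317 and 1244 bp away, and the nearest in the other lists were at 1929 bp (50 °C/5 min), 1269 bp (50 °C/40 min) and 1258 bp (65 °C/40 min). Each list thus had a peak near the site but not on it.

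Among the 19 strong absent peaks of chromosome 9, 10 lay in the stretch chr9:2999961-3038311, which was singled out after its values were seen. Of its 24 fresh frozen peaks 17 were absent, 10 of them strong, with −log10 q-values of 21.7 to 96.1 and widths of 183 to 537 bp. Of those 10, 8 met one of the 100 highest H3K4me2 peaks and 7 a FiT-seq H3K27Ac peak. The 4 highest flanking peaks there were chr9:3032299-3032571 (85.9, H3K4me2 rank 35), chr9:3025407-3025656 (58.5, rank 54), chr9:3037921-3038311 (54.7, rank 50) and chr9:3022063-3022288 (51.3, rank 59). At 50 °C and 40 min the nearest peaks to these sites were 302928, 309843, 297188 and 313211 bp away, whereas each had a peak of another list within 1358 bp. The highest isolated one, chr9:3015197-3015442 (246 bp, 96.1, rank 90), had an H3K4me2 rank of 27 and gaps of 14687 bp (50 °C/5 min), 320057 bp (50 °C/40 min), 8022 and 7998 bp (65 °C/5 min pair) and 7577 bp (65 °C/40 min). Found peaks of the stretch numbered 7, with values of 15.5 to 121. Without the stretch, 31 of 164 strong absent peaks lay on one of the 100 highest H3K4me2 peaks, or 18.9% (13.6 to 25.6).

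A larger share of peaks was absent at the start of chromosomes than elsewhere. Mouse chromosomes carry the centromere at one end, and their assembled sequence begins beside it. Up to position 3500000, a window chosen after seeing the data, 19 of 70 strong peaks were absent, or 27.1% (18.1 to 38.5). In the rest of the autosomes it was 155 of 11253, or 1.38% (1.18 to 1.61). Chromosome 9 gave 10 of the 19, and without that chromosome the window held 9 of 52, or 17.3% (9.38 to 29.7), on 6 chromosomes. One of the 100 highest H3K4me2 peaks lay at 13 of the 19. Of the weak peaks in the window 58 of 188 were absent, or 30.9% (24.7 to 37.8), and in the rest 7453 of 35727, or 20.9% (20.4 to 21.3). By whole chromosome, the share of all fresh frozen peaks that were absent ran from 13.5% on chromosome 11 to 19.5% on chromosome 3. The share of strong ones ran from 1.00% on chromosome 10 to 3.02% on chromosome 9.

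Some absent peaks followed each other without a found fresh frozen peak between them. Runs of 3 or more with gaps of up to 50000 bp numbered 432 and held 1548 absent peaks, or 20.1%, of which 59 were strong. Whether that is more than the spacing of peaks and the 16.3% share of absent ones would give was not tested. The longest by number was chr9:3002899-3022288 with 10 peaks, 9 of them on an H3K4me2 peak. Another 4 runs held 8 peaks each, and the pair with the highest single values among them was chr8:35504827-35566685 and chr11:113006296-113063203. The chromosome 8 run had values up to 31.5 and no H3K4me2 peak inside. A FiTAc-seq peak lay 130 bp from one of its members, at 65 °C and 40 min. The chromosome 11 run had values up to 29.6 and 1 H3K4me2 peak. Its nearest FiTAc-seq peaks differed between conditions, with 6465 and 6516 bp at 40 min of sonication at 50 °C and 65 °C, against 5 min values of 447536 bp for 50 °C and 337065 and 336915 bp for the 65 °C pair.

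The weak isolated peaks, 4791 of the 7685, stood more alone than strong isolated ones, which were chosen by the same distance rule. No other fresh frozen peak lay within 10000 bp of 48.2% (46.8 to 49.7) of them, against 31.3% (24.1 to 39.6) of strong isolated peaks and 12.9% (12.5 to 13.3) of weak found peaks. Weak flanking peaks stood alone in 18.9% (17.4 to 20.4) of cases. The contrasts of isolated with found and flanking peaks are partly set by the rule. Each found peak overlaps a FiTAc-seq peak, and isolated peaks have none within 5000 bp. A found fresh frozen peak thus lay within 5000 bp of only 6 of the 4791. Weak absent peaks had H3K4me2 less often than weak found peaks, 3.88% (3.22 to 4.65) and 5.57% between −log10 q-values of 5 and 10 at widths up to 300 bp, and 5.51% (3.63 to 8.28) and 16.3% between 10 and 20 at widths of 300 to 500 bp. Between 10 and 20 at widths up to 300 bp the intervals overlapped, with 8.40% (5.95 to 11.7) and 10.3% (9.12 to 11.7). Below 5 and above 300 bp the shares of absent and found peaks differed by less than counting error, at 6.25% (3.88 to 9.91) and 5.19% for widths of 300 to 500 bp. These values compare 1 library of each mark, so no p-value is given.

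Not every absent peak lacked a peak in the 2 short FFPE H3K27Ac lists, which were not used to choose absent peaks. A called peak there does not show the mark itself, since input DNA was not analysed here. FiT-seq H3K27Ac, with 112 autosomal peaks, met 16 of the 174 strong absent peaks, or 9.20% (5.74 to 14.4), and 12 of the 11149 strong found peaks, or 0.108% (0.0616 to 0.188). Over all strong peaks it met 0.247%, over all weak peaks 0.0306% and over all fresh frozen peaks 0.0826%. This difference went largely with the highest H3K4me2 peaks. On one of the 100 highest, FiT-seq met 35.9% (22.7 to 51.6) of the 39 absent and 57.1% (36.5 to 75.5) of the 21 found peaks, with overlapping intervals. Off them it met 2 of 135 strong absent peaks, or 1.48% (0.407 to 5.24). Both, chr9:3002899-3003081 and chr9:3027043-3027249, lay in the chromosome 9 stretch. Of the 11128 strong found peaks off them it met 0, which allows up to 0.0270%. Of the 16 strong absent ones, 10 were isolated, 14 lay on one of the 100 highest H3K4me2 peaks and 7 in the chromosome 9 stretch, without which the share was 9 of 164, or 5.49% (2.91 to 10.1). Among weak absent peaks it met 4. The 80 °C list, with 55 autosomal peaks, met 0 of the 7685 absent peaks, which allows a share of up to 0.0390%, and 49 of the found peaks, or 0.124% (0.0937 to 0.164), with 0.104% over all peaks and 0.0195% over weak ones. Of the 174 strong absent peaks it met 0, which allows up to 1.72%, and of all strong peaks 0.371%, so a difference there was not detectable at this number of peaks.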

How the data were processed

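The submitters' processing notes name BWA, MACS2 and the build mm9. Tool versions, the threshold, filters and any control library are not given in the sources used here. The authors deposited 1 peak list per library, each with a value that was read as a −log10 q-value because all values are 2 or more and the long lists end near 2. Such values move with sequencing depth and background, so they were used to rank and divide peaks within a list. The median of the FiTAc-seq peaks next to flanking peaks, which pools lists, is an exception.

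Peaks on chromosomes 1 to 19 were kept, starts are 1-based, and gaps run from edge to edge. The highest peak was taken where several met a site, and ranks cover chromosomes 1 to 19, X and Y. The peaks and limits were chosen with earlier results of these data known. Named sites are the 10 highest strong isolated peaks, the 5 highest without another FFPE peak, the 5 highest with H3K4me2 only, the 5 highest flanking, the 3 widest, the 3 runs with most peaks (ties broken by the highest value) and those next to each limit; the farthest peak was added after its value was seen. Groups followed sample titles. No test was run, since all but 1 group had 1 library, whether the pair at 65 °C and 5 min came from separate animals is not given, and sites are not replicates. Overlap, gap and run steps were tested on simulated lists. The gene lists planned for an mm9 annotation were not run. The tools were matplotlib 3.10.9, scipy 1.17.1, pandas 2.3.3 and numpy 2.4.6 under Python 3.11.15.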

Additional observations from a re-analysis of the deposited data

Results flagged for a closer look

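Chromosome Y lay outside the comparisons, and it held fresh frozen peaks where the long FiTAc-seq lists held none. Of the 73 fresh frozen peaks there, 73 were absent from the 5 long FiTAc-seq lists, 13 of them strong, where the limit that a count of 0 allows is 3. The 80 °C list had 9 peaks on chromosome Y, H3K4me2 had 1 and FiT-seq H3K27Ac 0. On chromosome X, 252 of 928 fresh frozen peaks were absent, or 27.2% (24.4 to 30.1), against 16.3% on the autosomes. Of the 169 strong peaks on chromosome X 14 were absent, a larger share than the 1.54% of strong autosomal peaks. The cause was not tested.

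The mitochondrial genome was left out as well, and the fresh frozen list held 11 peaks there. The second library at 65 °C and 5 min held 13 and the first 0. FiT-seq held 5 for H3K27Ac and 5 for H3K4me2, the 50 °C, 5 min list 1, and the lists of 40 min 0 each.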

How the results depend on the processing

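Of 163 recomputed values, 134 moved by less than their interval, or by less than 1.5 times for counts. The number of absent peaks (7685) was 4856 with fresh frozen peaks of 5 or more, where fewer peaks enter. The 432 runs became 208 there, 192 with fresh frozen peaks merged within 500 bp and 793 with only the pair at 65 °C and 5 min counted. The pair alone gave 286 strong and 222 isolated strong peaks, and a limit of 30 in place of 20 gave 64 and 48. The share of flanking peaks (35.9%) was 42.1% with an overlap of 50% of the shorter peak, 17.5% with peaks within 500 bp counted as found, 32.0% with FiTAc-seq peaks of 5 or more, 27.9% after merging, 33.8% with the pair alone and 50.9% with a limit of 10000 bp. Merging gave strong absent peaks a median width of 693 bp, in place of 437.5 bp. Strong absent peaks with H3K4me2 (32.2%) made 25.5% with the pair alone, 56.3% (isolated 52.1%) at a limit of 30, and 12.6% (isolated 13.5%) without the 100 highest H3K4me2 peaks. The share on those 100 peaks (22.4%) was 15.7% with the pair alone, 48.4% at 30, 15.8% without peaks that met a FiT-seq H3K27Ac or 80 °C peak and 16.8% without the chromosome starts. Isolated strong peaks with FiT-seq H3K27Ac (7.46%) made 16.7% at 30 and 0% without the 100 highest H3K4me2 peaks. Weak absent peaks with H3K4me2 (4.39%) made 4.92% with FiTAc-seq peaks of 5 or more and 5.02% with fresh frozen peaks of 5 or more.

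Leaving out the first or second library of the pair gave 8674 and 8246 absent peaks, of which 197 and 180 were strong, and 5.00% and 4.64% of weak absent peaks then had H3K4me2. The causes were not tested. Shares that the left-out peaks themselves define were not run. Leaving out the 100 highest H3K4me2 peaks or the chromosome starts was chosen after seeing the data, as was the share on those 100 peaks. No paired analysis was possible because the groups compared are sites of 1 library and share no replicate numbers. Depth is unknown, so a weak site missed for want of reads cannot be told apart from one without the mark.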

Other observations

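Seen from H3K4me2, 96 of its 100 highest peaks lay on autosomes. Of these, 45 met an absent fresh frozen peak, 38 of them a strong one, 23 met a found one and 28 met none. Of any long FiTAc-seq list, 35 of the 96 met a peak, with 28 in each 65 °C/5 min library. At 40 min, 25 were met at 65 °C and 4 at 50 °C, and at 50 °C/5 min 17 were met. FiT-seq H3K27Ac met 53 of them.

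Sites found in just 1 FiTAc-seq list numbered 3306 and bordered on the absent ones, with a median −log10 q-value of 6.46 in fresh frozen liver and a median width of 246 bp. The 65 °C/5 min libraries alone held 989 and 561 of them. After 40 min of sonication, 962 were seen at 50 °C alone and 732 at 65 °C alone, and 62 at 50 °C/5 min alone. The highest, named after its value was seen, was chr4:70039066-70039390, with a −log10 q-value of 141 and rank 6 in fresh frozen liver. It was found at 65 °C and 40 min only, ranked 11 for H3K4me2 and 12 in the 80 °C list.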
